A study of Rattus norvegicus with 21 samples.

Results

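Aqp4, Gfap, S100b, Slc4a4, Fgfr3 and Bcan are genes used as markers of astrocytes, and their expression ratios in rat spinal cord are described here over 7 groups of 3 arrays. Every probe whose annotated gene symbol was 1 of these 6 names was taken, which gave 8 probes of 4911 measured probes and 6 of 4148 named genes. Aqp4 (probe 19E12), Gfap (28A09), Slc4a4 (21E03) and Fgfr3 (29D06) had 1 probe each, while S100b (35H08 and 52D05) and Bcan (24E09 and 52F04) had 2 probes each. Each probe is reported apart. The rule itself reads gene symbols and no measured value, but the 6 genes were chosen with earlier results of these data known.

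The study tested anti-inflammatory compounds in a culture model of spinal cord injury and set the RNA of each sample beside a pool of culture RNA on a 2-colour array. In the Injured 4 hr group, unpooled spinal cord cultures were kept for 4 hr with PBS, and in the Uninjured group the cord was freshly dissected. Cultures labelled CKIN, MP and Acet (acetaminophen, an analgesic) were kept for 4 hr and, like both groups above, compared with pooled PBS cultures. Cultures labelled Indo (indomethacin, an inhibitor of both cyclooxygenases) were compared with pooled ethanol (ETOH) cultures, and NS398 cultures (an inhibitor that prefers cyclooxygenase 2) with pooled DMSO cultures. The labels give only the letters for CKIN and MP, and no dose for any compound. All groups but Uninjured are cord kept in culture, so injury here means dissection and 4 hr of culture. The labels give no strain, age, sex or number of animals, and they leave the source of the 3 replicates (animals, cultures or repeat hybridisations) unstated. A p-value here thus reflects the scatter of the deposited arrays, which may be technical.

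Astrocytes are glial cells that take up glutamate and potassium, move water and ions between neurons and vessels, and secrete matrix. Aqp4 is the water channel of their vessel-facing endfeet, and Slc4a4 is a sodium bicarbonate cotransporter that carries acid equivalents across their membrane. Fgfr3 is a receptor tyrosine kinase for fibroblast growth factors, Bcan is the matrix proteoglycan brevican, Gfap is the intermediate filament protein of the cell body, and S100b is a calcium-binding protein. In the rodent cord Gfap is known as a gene that rises in reactive astrocytes in the days after injury. Oligodendrocyte lineage cells can also express S100b and Bcan.

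The values are log2 ratios of sample over pool, centred on the median probe of each array. A positive value means more RNA in the sample than in the pool, relative to that median, if the RNA named first in the sample titles is the numerator, which is likely but not stated. If the pool were the numerator on every array, every sign below would turn, and lowest would read highest. An array gave values for 3092 to 4916 probes. With 3 arrays per group, their number sets the precision. The arrays also differed in technical measures, most of which moved with the groups. Log2 values equal (within 6e-05) to a ratio of whole numbers up to 20 made up 8.02 to 12.2% of the values on the arrays of the 5 compound groups, 0.977 to 1.17% on the Injured 4 hr arrays and 0.183 to 0.667% on the Uninjured arrays. Arrays on which over 1100 spots were missing are called sparse below. They were every CKIN array (3), every Indo array (3), 2 from MP, 1 from NS398 and 1 from Acet. The centred ratio of Gapdh, an abundant transcript of all cells, was between 2.15 and 2.16 on the Injured 4 hr arrays and between 3.63 and 4.01 on the Uninjured arrays, and from 0.24 to 2.61 on the others. On the Injured 4 hr arrays both channels carried PBS culture RNA, yet 1071 of 4865 probes (22.0%) differed from 0 there. Centred ratios away from 0 were thus also seen where like RNA met like RNA. Corrected ratios are therefore given beside the main values. They subtract from each array a smooth curve fitted on the mean that each probe had in Injured 4 hr, and then the median of each source plate of the probes. Their mean in Injured 4 hr is near 0 by construction.

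The stretches before the transcription starts of 4 of the genes are shown because the genes moved together in the comparison that follows while their promoters are unlike in base composition. They are the 250 bases before the start, 5′ to 3′ on the minus strand of GRCr8, from RefSeq, with each CG in capitals. They lie at chr18:6798843-6799092 for Aqp4, chr10:88361662-88361911 for Gfap, chr14:19468283-19468532 for Slc4a4 and chr14:81227210-81227459 for Fgfr3.
Aqp4: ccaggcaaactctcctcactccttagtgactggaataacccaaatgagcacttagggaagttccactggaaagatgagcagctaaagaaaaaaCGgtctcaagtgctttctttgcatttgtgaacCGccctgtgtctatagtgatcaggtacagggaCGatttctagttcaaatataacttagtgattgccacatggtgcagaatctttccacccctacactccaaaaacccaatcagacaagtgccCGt
Gfap: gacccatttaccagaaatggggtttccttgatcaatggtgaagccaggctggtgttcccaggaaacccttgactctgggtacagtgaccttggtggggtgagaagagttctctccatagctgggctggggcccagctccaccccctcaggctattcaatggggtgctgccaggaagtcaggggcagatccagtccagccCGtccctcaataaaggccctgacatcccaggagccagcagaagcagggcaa
Slc4a4: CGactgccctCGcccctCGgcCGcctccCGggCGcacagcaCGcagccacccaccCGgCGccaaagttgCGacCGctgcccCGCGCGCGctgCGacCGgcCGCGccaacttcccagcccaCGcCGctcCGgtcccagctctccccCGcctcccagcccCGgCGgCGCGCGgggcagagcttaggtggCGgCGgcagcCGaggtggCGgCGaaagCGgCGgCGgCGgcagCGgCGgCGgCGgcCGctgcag
Fgfr3: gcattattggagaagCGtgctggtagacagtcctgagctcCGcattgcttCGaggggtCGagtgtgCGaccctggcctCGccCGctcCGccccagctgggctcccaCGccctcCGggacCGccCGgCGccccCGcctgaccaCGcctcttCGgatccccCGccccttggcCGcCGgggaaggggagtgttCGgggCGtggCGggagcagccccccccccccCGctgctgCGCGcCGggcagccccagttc

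These windows held 4 CG in Aqp4, 1 in Gfap, 42 in Slc4a4 and 26 in Fgfr3, against a median of 5 over 33469 RefSeq promoters. The window of S100b held 5 and that of Bcan 15. A second annotated start of Aqp4 held 3. Only 0.82% of promoters held at least as many CG as that of Slc4a4, while 92.2% held at least as many as that of Gfap. The palindrome TTCNNNGAA, which STAT factors bind, was in 0 of the 7 windows of the 6 genes and in 7.67% of all promoters. The palindrome TGANTCA, which AP-1 factors bind, was in 0 of the 7 windows and in 6.34% of all promoters. The absence of these letters says nothing about the factors elsewhere at the genes.

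The first comparison asked what 4 hr of culture did to the freshly dissected cord. Relative to the median probe, 4 genes of ion, water, growth factor and matrix functions and the filament gene Gfap were lower in Injured 4 hr than in Uninjured. In centred ratios Aqp4 had the lowest change of all 4822 probes tested (the highest, if the ratio runs the other way). In corrected ratios it was not the lowest, as Gjb6 was at -2.91 and Aqp4 at -2.89. S100b was the exception in the main fit, with smaller differences that did not pass the test there. Fewer astrocytes and less RNA per astrocyte cannot be told apart in RNA of whole cord. The share of whole-number ratios and the centred ratio of Gapdh also part every Injured 4 hr array from every Uninjured array. Whatever made the arrays differ in these measures cannot be told apart from the culture either.

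Aqp4 had centred ratios of 0.34, 0.70 and 0.59 in Injured 4 hr, against 3.85, 4.78 and 3.66 in Uninjured. The groups lay far apart, and the lowest Uninjured array was well above the highest Injured 4 hr array. The change was -3.55 ± 0.78 (SE, n = 3 each; limma adjusted p = 0.0049), or 11.7-fold lower. In corrected ratios it was -2.89 (adjusted p = 0.033).

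Slc4a4 had ratios of -0.18, 0.45 and -0.18 in Injured 4 hr, against 2.39, 2.70 and 2.17 in Uninjured. The lower group scattered around the array median and did not come near the other. The change was -2.39 ± 0.36 (SE; limma adjusted p = 0.00017), or 5.24-fold lower, and -2.35 in corrected ratios.

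The receptor gene Fgfr3 had 0.29, 0.20 and -0.48 in Injured 4 hr, against 2.88, 1.94 and 2.05 in Uninjured. Again the groups did not overlap. The change was -2.29 ± 0.33 (SE; limma adjusted p = 0.00012), or 4.88-fold lower, and -2.35 in corrected ratios (adjusted p = 2.8e-05).

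Bcan was lower on both of its probes. Probe 24E09 had -0.0024, 0.14 and 0.56 in Injured 4 hr, against 2.00, 2.18 and 2.35 in Uninjured. Probe 52F04 had -0.72, -0.28 and 0.01 in Injured 4 hr, against 0.95, 2.04 and 1.82 in Uninjured, with the first Uninjured array the nearest to the other group. The changes were -1.94 ± 0.35 and -1.93 ± 0.41 (SE; limma adjusted p = 0.00097 and 0.0052). In corrected ratios they were -1.55 and -2.28, and both passed.

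Gfap had 2.01, 1.60 and 2.01 in Injured 4 hr, against 3.93, 4.31 and 3.71 in Uninjured. Both groups were above the median probe and did not overlap. The change was -2.11 ± 0.53 (SE; limma adjusted p = 0.011), or 4.31-fold lower. In corrected ratios it was -1.09 (adjusted p = 0.025). Gapdh was lower on the same arrays too, at 2.15 to 2.16 in Injured 4 hr and 3.63 to 4.01 in Uninjured.

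S100b probe 35H08 had 1.77, 2.02 and 2.01 in Injured 4 hr, against 2.62, 3.01 and 3.10 in Uninjured. Probe 52D05 had 2.28, 2.09 and 2.09 in Injured 4 hr, against 2.78 and 3.08 on the 2 Uninjured arrays that measured it. All Injured 4 hr values were below all Uninjured values on both probes. The changes of -0.98 ± 0.54 and -0.78 ± 0.62 (SE; limma adjusted p = 0.24 and 0.43) did not pass, and their 95% intervals ran from -2.09 to 0.14 and from -2.06 to 0.51. The error used is shared by all groups, and both probes varied most in MP. With only the compared groups in the fit both probes passed, where 1804 of 4822 probes passed. In corrected ratios the changes were -0.18 and -0.05 and the groups overlapped.

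**Figure D1:**
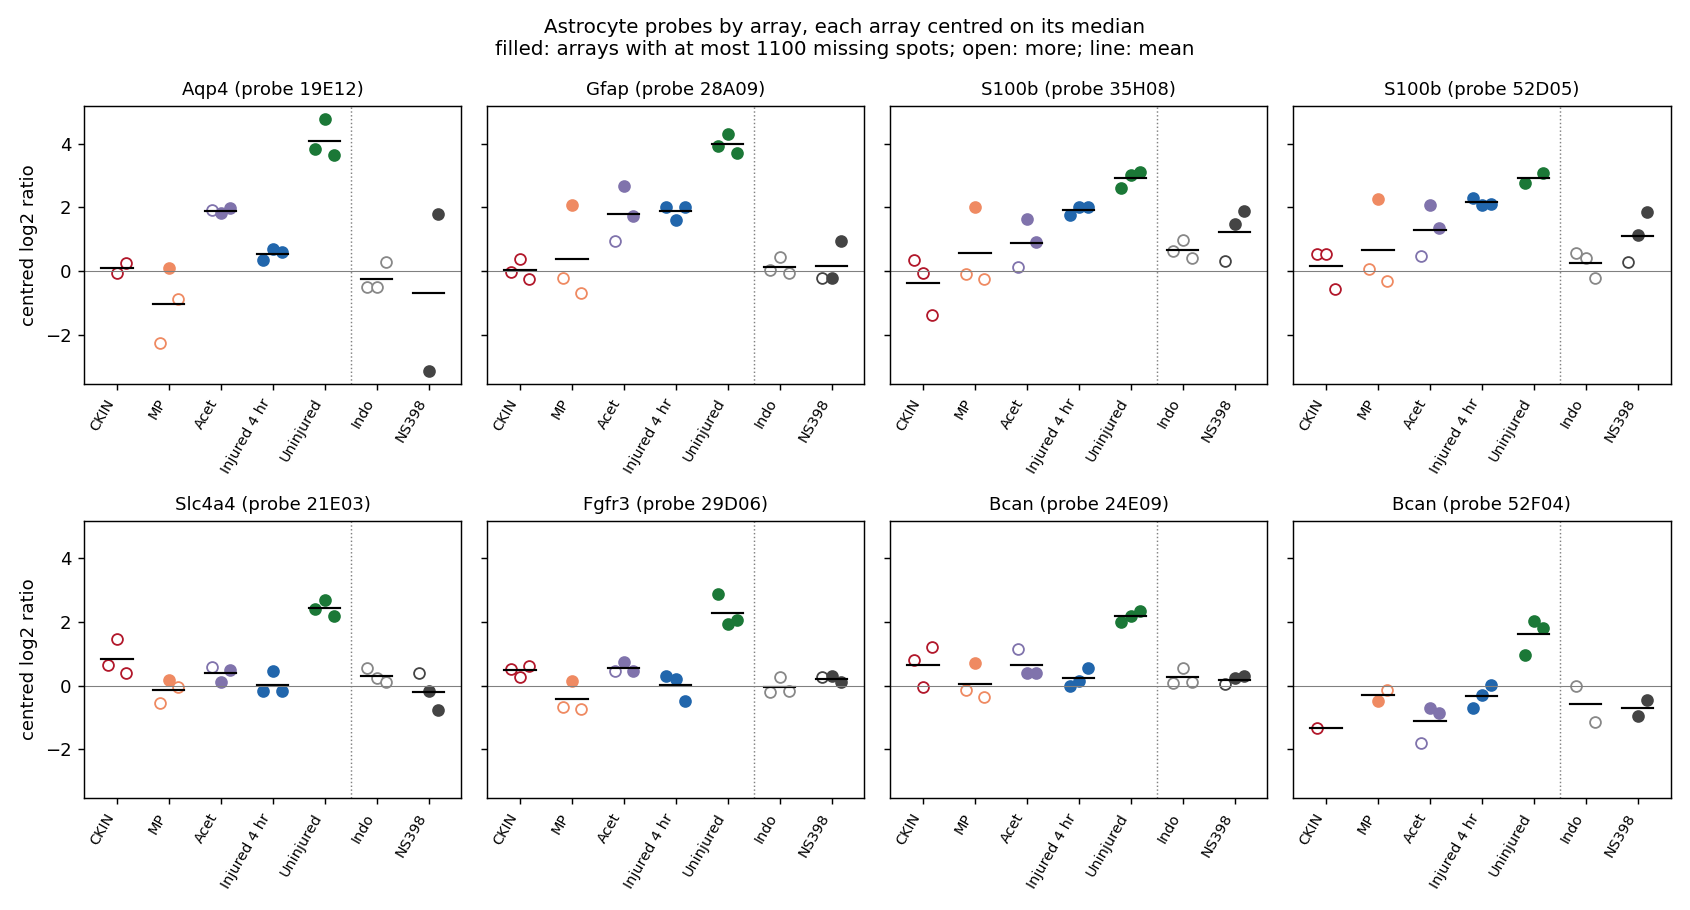
Centred log2 ratio of sample over pool (y axis) of the 8 astrocyte probes on each array, by group (x axis). Filled points are arrays with at most 1100 missing spots, open points are sparse arrays, and lines are group means. The Uninjured arrays are above the Injured 4 hr arrays in every panel, by most in Aqp4, and the treatment groups right of the dotted line were compared with other pools.

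In all, 6 of the 8 probes passed and all of these were lower in Injured 4 hr, against 14.1% of all probes tested and 13.4% called lower. In corrected ratios 6 of 8 also passed, all lower, against 7.15% of all probes and 4.67% called lower. The median change of the 8 probes was -2.02 (-1.92 corrected), beside -0.04 (0.02 corrected) over all probes tested. The direction held for the other members under each scaling, but under scale normalization Gfap was 0.15 higher and S100b 0.88 and 1.18 higher in Injured 4 hr, none past the threshold. S100b was also 0.55 higher on both probes in deposited ratios and 0.18 and 0.43 higher under quantile normalization. No member passed under quantile or scale normalization. Leaving out 1 array ended the call of Gfap in 2 cases, Injured 4 hr replicate 2 (adjusted p = 0.053) and Uninjured replicate 2 (adjusted p = 0.055).

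**Figure D2:**
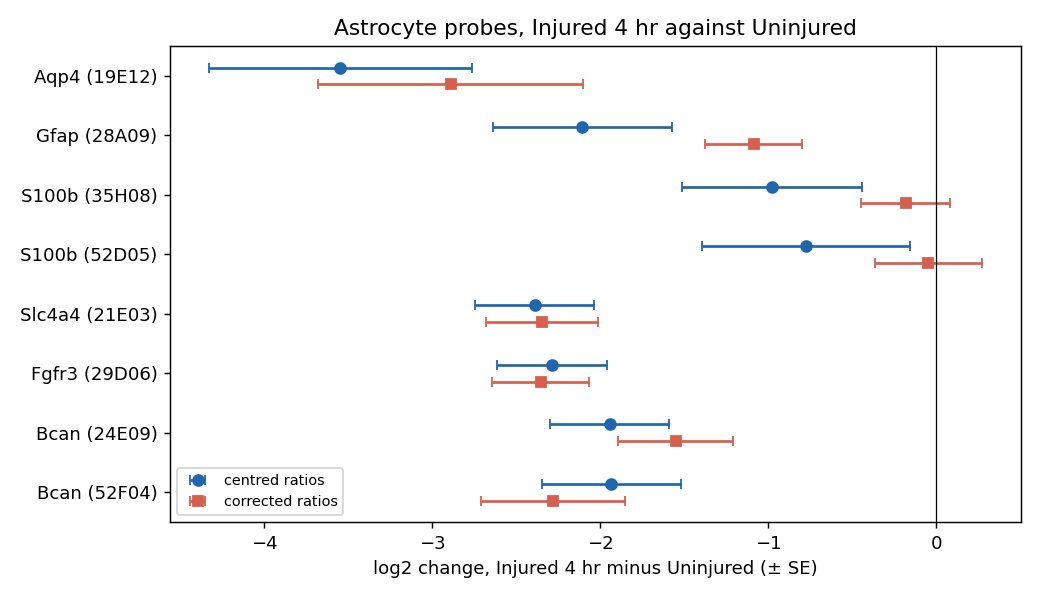
Change in log2 ratio, Injured 4 hr minus Uninjured (x axis), of the 8 astrocyte probes in centred ratios (circles) and corrected ratios (squares), with bars of 1 SE. Slc4a4, Fgfr3 and Bcan sit between -2.39 and -1.55 on both scales, Gfap is at -2.11 in centred and -1.09 in corrected ratios, and S100b is near 0 in corrected ratios.

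Other astrocyte genes, listed from knowledge of the cell type, were measured by 22 probes. Of these, 12 fell in Injured 4 hr and 0 rose, with a median change of -1.51 (-0.81 corrected). The largest fall was that of Gjb6, a gap junction connexin, at -2.85 ± 0.48 (SE; limma adjusted p = 0.00058). Cpe, a peptide-processing enzyme, changed by -2.52, the neurotrophin receptor Ntrk2 by -2.42 and the sodium pump subunit Atp1b2 by -2.20. In corrected ratios 5 of the 22 fell, among them Gjb6 (-2.91), Cpe (-1.65) and Ntrk2 (-1.99), while Atp1b2 (-1.05) did not pass. Among 20 probes of genes known to mark reactive astrocytes, 1 fell, that of the growth cone protein Gap43 (-1.46), and 0 rose, with a median of -0.11. In corrected ratios Gap43 was -0.37 and did not pass, while 1 of the 20 rose, that of the protease inhibitor Timp1 (1.97, and 1.17 in centred ratios), with a median of 0.09.

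The partners of the member genes were looked at by family. Of all probes tested 13.4% were called lower, and in corrected ratios 4.67% lower and 2.49% higher. In the FGF family, 4 of 18 probes other than Fgfr3 fell and 0 rose. The ligand gene Fgf9, whose product binds FGFR3, changed by -2.16 ± 0.44 (SE; limma adjusted p = 0.0030) and by -2.28 in corrected ratios. The receptors Fgfr1 and Fgfr2 changed by -1.38 and -1.15, and Fgf13, a relative that is not secreted, by -1.12, and these 3 did not pass in corrected ratios. The median over the 18 probes was 0.29. Of 9 other aquaporin probes 0 passed in either direction, with a median of 0.77. Of 12 probes of other intermediate filament genes 2 fell, those of the neuronal filaments Nefm (-2.64) and Prph (-2.54), and both also fell in corrected ratios. Of 7 probes of other S100 genes 1 fell, for S100a4 at -0.99, and 0 passed in corrected ratios, where S100a4 was -0.09. Of 5 probes of other bicarbonate and anion exchange transporters 0 passed, but in corrected ratios 2 rose, those of the bicarbonate cotransporter Slc4a7 (1.24) and the anion exchanger Slc4a2 (0.87), opposite in sign to Slc4a4.

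Markers of other cells moved as well. Among 15 probes of neuron markers 9 fell (6 in corrected ratios), with a median of -1.64, the largest being Snap25, a synaptic fusion protein, at -3.19. The mean centred ratio of the 15 neuron probes ran from 1.36 to 1.54 over the Injured 4 hr arrays and from 3.16 to 3.43 over the Uninjured arrays. That of the 8 astrocyte probes ran from 0.72 to 0.86 over the Injured 4 hr arrays and from 2.67 to 2.99 over the Uninjured arrays. Of 12 oligodendrocyte probes 1 fell, that of the myelin protein Mog at -1.79, and 0 of 9 microglia and macrophage, 0 of 9 endothelial and 0 of 10 fibroblast and meningeal probes passed. In corrected ratios Mog was -0.64 and did not pass. There 3 of the 9 microglia and macrophage probes rose, for the protease Ctss (1.07), the complement component C1qb (0.97) and the integrin Itgam (1.67). The endothelial receptor Flt1 (1.02) rose as well, as did 3 of 6 blood probes, all of haemoglobin genes (0.87 to 1.04). Over all probes 2.49% rose in corrected ratios. The genes that rose only in corrected ratios were named after their values were seen. The part of these markers in the astrocyte result was not tested.

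**Figure D3:**
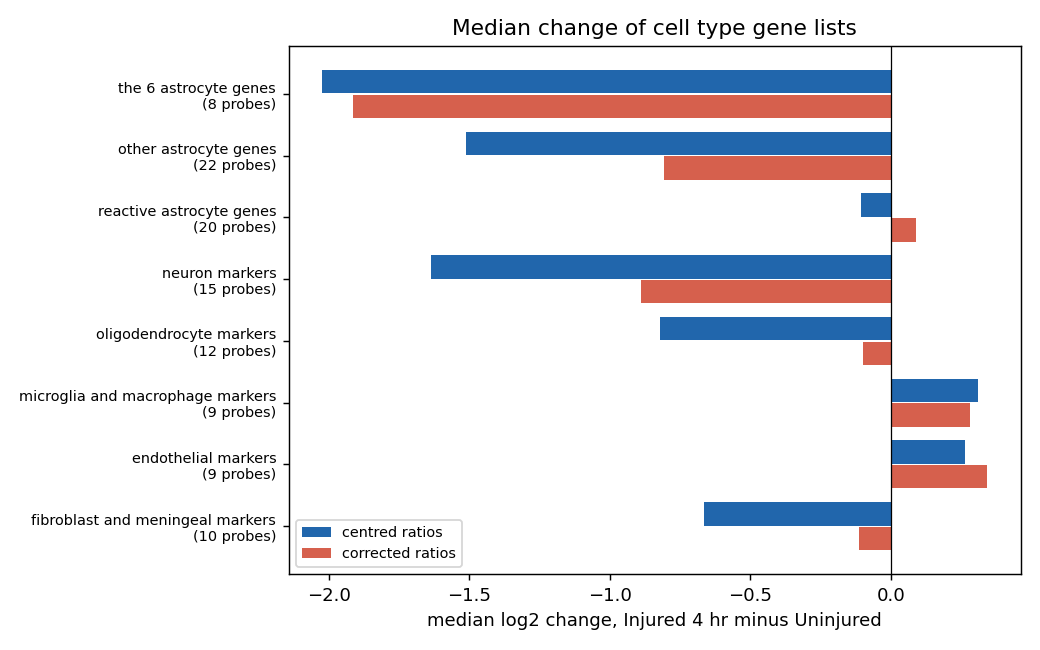
Median change in log2 ratio, Injured 4 hr minus Uninjured (x axis), of the probes of each gene list (y axis), in centred and in corrected ratios. The 6 astrocyte genes, chosen with earlier results of these data known, have the lowest median in both, at -2.02 and -1.92. The neuron markers are at -1.64 and -0.89, and the other astrocyte genes at -1.51 and -0.81.

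The treatments were then set against Injured 4 hr, which asks what each compound did in cultures of the same age. These comparisons share the Injured 4 hr arrays, so their values are given side by side. The share of whole-number ratios also parts every array of these treatments from every Injured 4 hr array, so that the treatments and whatever made the arrays differ in it cannot be told apart.

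In CKIN cultures, S100b and Gfap were the members called lower. S100b probe 35H08 had 0.35, -0.05 and -1.37 in CKIN, against 1.77, 2.02 and 2.01 in Injured 4 hr. Probe 52D05 had 0.53, 0.55 and -0.56 in CKIN, against 2.28, 2.09 and 2.09 in Injured 4 hr. Gfap had -0.03, 0.39 and -0.23 in CKIN, against 2.01, 1.60 and 2.01 in Injured 4 hr. No CKIN value came near an Injured 4 hr value on these 3 probes, and CKIN replicate 3 was the lowest of its group on each. The changes were -2.29 ± 0.54, -1.98 ± 0.55 and -1.83 ± 0.53 (SE; limma adjusted p = 0.0094, 0.022 and 0.025).

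The other genes had no called difference. Slc4a4 had 0.66, 1.47 and 0.38 in CKIN, against -0.18, 0.45 and -0.18 in Injured 4 hr, a difference of 0.81 ± 0.36 (SE; adjusted p = 0.11). The remaining differences were 0.47 for Fgfr3, 0.42 for Bcan 24E09 and -0.44 for Aqp4, which 2 CKIN arrays measured. None of these 4 passed, although both Aqp4 values in CKIN (-0.05 and 0.27) were below all Injured 4 hr values. In corrected ratios the Aqp4 groups overlapped. Bcan 52F04 had a value of -1.34 on 1 CKIN array and was not tested. Of 7 probes tested 3 passed, all lower, against 19.4% of all probes and 18% called lower, where the median change was -0.38.

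The values called lower in CKIN were those of probes that are high in Injured 4 hr against its own pool. Gfap averaged 1.87 ± 0.24 and S100b 1.93 ± 0.14 and 2.15 ± 0.11 there (SD, n = 3 each). These 3 were also the members that differed from 0 in Injured 4 hr, where like RNA was set against like RNA. Gapdh, too, had 0.69 to 1.18 in CKIN, against 2.15 to 2.16 in Injured 4 hr. In corrected ratios the changes were -0.74 and 0.18 for S100b and -0.56 for Gfap, and 0 of 7 probes passed by limma, against 0.749% of all probes, while 3 had an unadjusted p under 0.05. With the sparse arrays as a block 0 passed as well. With 1 array left out the call of S100b 35H08 held each time, while those of S100b 52D05 and Gfap ended without any 1 Injured 4 hr replicate and without CKIN replicate 3. Of 12 oligodendrocyte probes 7 also fell in CKIN, with a median of -1.61 (-0.05 corrected, 0 called). Of 22 probes of other astrocyte genes 5 fell, against 18% of all probes called lower. Their median was -0.78 (-0.03 corrected, 0 called).

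In MP cultures Gfap and S100b split by array, and so did Gapdh. MP replicate 2 is the MP array that was not sparse. Gapdh had a centred ratio of 2.61 on it, and of 0.79 and 1.05 on MP replicates 1 and 3. On MP replicate 2 Gfap was 2.07 and S100b 2.02 and 2.26, within or beside the Injured 4 hr range. On MP replicates 1 and 3 Gfap was -0.23 and -0.67, and S100b was between -0.31 and 0.08 on both probes. Gfap thus averaged 0.39 ± 1.47 in MP and 1.87 ± 0.24 in Injured 4 hr (SD, n = 3 each).

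Aqp4 had -2.27, 0.09 and -0.87 in MP, against 0.34, 0.70 and 0.59 in Injured 4 hr. All 3 MP arrays were below all Injured 4 hr arrays, in centred and in corrected ratios. The difference of -1.56 ± 0.78 (SE; limma adjusted p = 0.30) did not pass. The differences were -1.48 for Gfap, -1.37 and -1.48 for S100b, -0.43 for Fgfr3, -0.17 for Bcan 24E09, -0.16 for Slc4a4 and 0.02 for Bcan 52F04. In corrected ratios they were -1.50 for Aqp4, -0.87 for Gfap and -0.63 and -0.35 for S100b, and 0 of 8 probes passed.

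By limma 0 of 8 probes passed in MP, against 2.00% of all probes, while 3 of them had an unadjusted p under 0.05. Without MP replicate 2 the count was 3, with Gfap at -2.33 and S100b at -2.10 and -2.27. Over all probes 571 of 3638 then passed, against 88 of 4391 with all arrays. Both remaining MP arrays were sparse, and the part of sparseness was not tested.

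In acetaminophen cultures Aqp4 was the member with the highest value relative to Injured 4 hr. It had 1.92, 1.81 and 1.97 in Acet, against 0.34, 0.70 and 0.59 in Injured 4 hr. The 3 Acet values lay close together, although 1 of these arrays was sparse and 2 were not, and all were above the Injured 4 hr values and below the Uninjured values. The difference of 1.35 ± 0.78 (SE; limma adjusted p = 0.48, 95% interval -0.28 to 2.99) did not pass. The error used here is shared by all groups, and Aqp4 varied most in NS398, where 2 arrays had -3.14 and 1.80, and in MP.

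Fgfr3 had 0.46, 0.74 and 0.45 in Acet, against 0.29, 0.20 and -0.48 in Injured 4 hr. These groups did not overlap, but the difference of 0.54 ± 0.33 (SE; limma adjusted p = 0.51) did not pass. S100b was below Injured 4 hr on both probes without overlap, at -1.04 and -0.86, and neither passed. In corrected ratios these were -0.38 and 0.14, and probe 52D05 overlapped. Gfap had 0.93, 2.68 and 1.74 in Acet and overlapped Injured 4 hr, with the sparse array again the lowest. Gapdh had 0.64, 2.25 and 1.44 on the same Acet arrays. In corrected ratios all 3 Acet values of Gfap, at 0.26 to 0.50, were above the Injured 4 hr values, at -0.21 to 0.14, with a difference of 0.40 (adjusted p = 0.70). Slc4a4 differed by 0.37 and Bcan by 0.41 and -0.79. In corrected ratios Aqp4 differed by 1.44 and Fgfr3 by 0.76, and 0 of 8 probes passed. By limma 0 of 8 probes passed, against 1.23% of all probes, and 0 had an unadjusted p under 0.05.

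**Figure D4:**
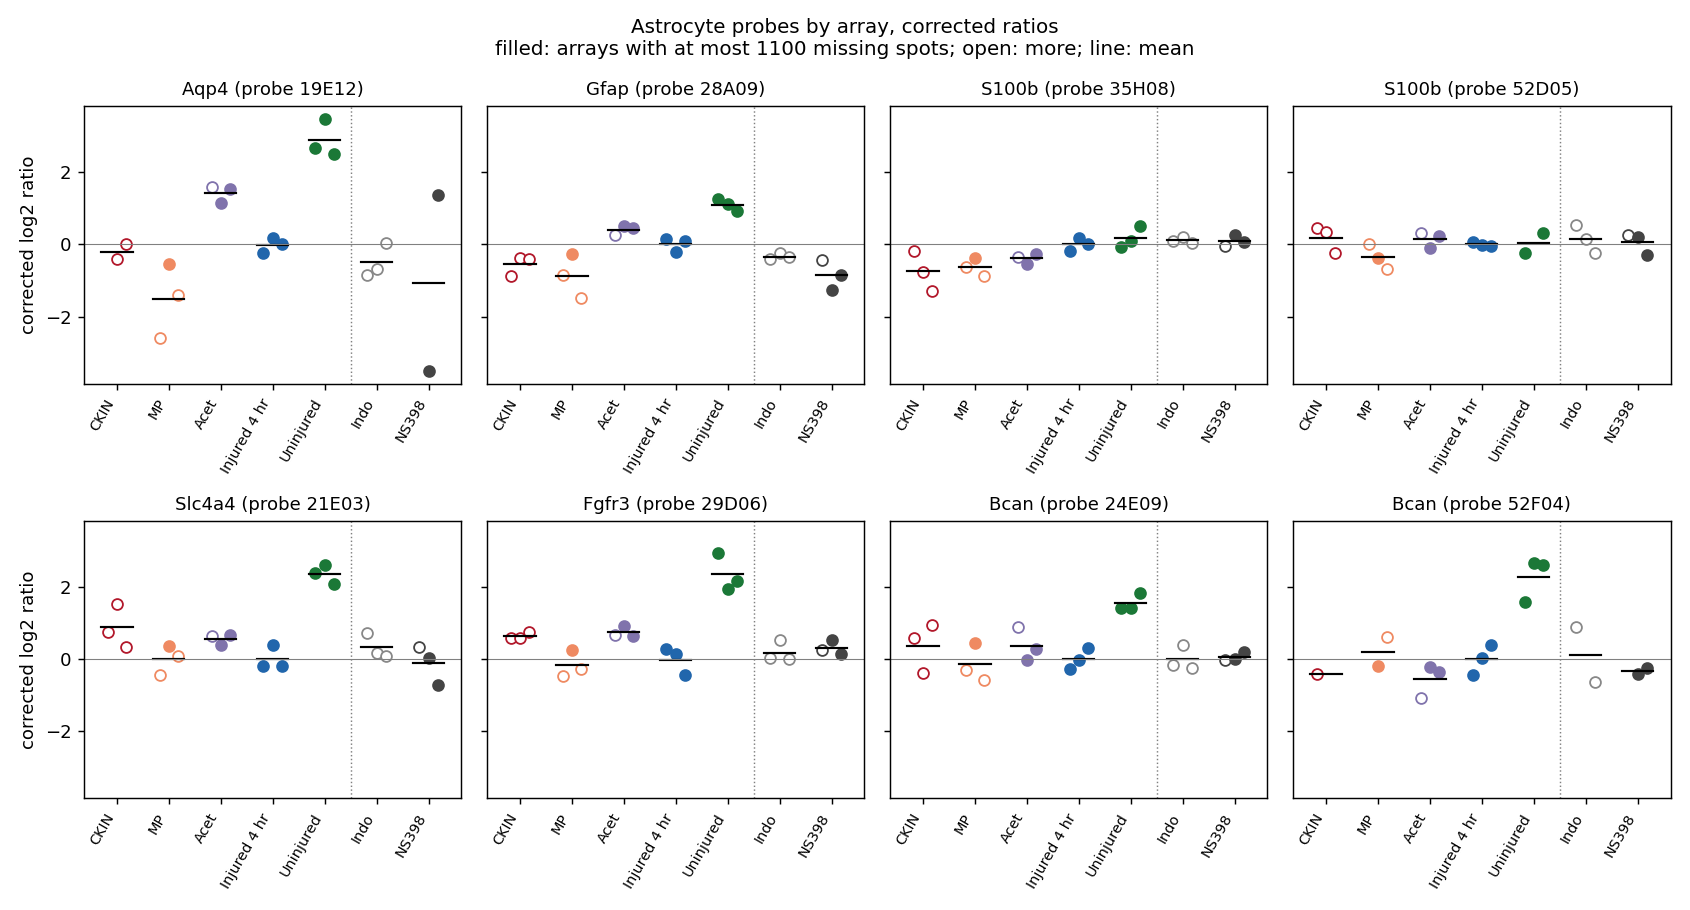
Corrected log2 ratio (y axis) of the 8 astrocyte probes on each array, by group (x axis), with symbols as in the plot of centred ratios. Aqp4, Slc4a4, Fgfr3 and Bcan remain higher in Uninjured than in Injured 4 hr, S100b overlaps, and Aqp4 in Acet lies between 1.14 and 1.60.

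Set against each other, the treatments differed most in Aqp4. MP had -2.27, 0.09 and -0.87, against 1.92, 1.81 and 1.97 in Acet, and the groups did not overlap. The difference of -2.92 ± 0.78 (SE; limma adjusted p = 0.44) was the lowest of 4379 probes tested and had an unadjusted p of 0.0013, but it did not pass. The pair share the PBS pool and not the Injured 4 hr arrays. Fgfr3 had -0.68, 0.15 and -0.73 in MP, against 0.46, 0.74 and 0.45 in Acet, a difference of -0.97 ± 0.33 (SE; adjusted p = 0.54). Of 8 probes 0 passed between MP and Acet, against 0.0228% of all probes, with 3 at an unadjusted p under 0.05. Gfap passed without MP replicate 2 (-2.23, adjusted p = 0.041), where 5 of 3658 probes passed. In corrected ratios Aqp4 differed by -2.94 and Fgfr3 by -0.91, and 0 of 8 passed.

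Between CKIN and Acet the differences were -1.80 for Aqp4, -1.74 for Gfap, -1.25 and -1.12 for S100b and 0.44 for Slc4a4. None of 7 passed, against 0.0800% of all probes, with 2 at an unadjusted p under 0.05. In corrected ratios they were -1.63 for Aqp4, -0.95 for Gfap, -0.36 and 0.04 for S100b and 0.32 for Slc4a4, and 0 passed. Between CKIN and MP they were 1.12 for Aqp4, 0.97 for Slc4a4 and 0.90 for Fgfr3. None of 7 passed there either, against 0.00% of all probes, with 2 at an unadjusted p under 0.05. In corrected ratios these 3 were 1.31, 0.87 and 0.81, and 0 passed.

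Indomethacin cultures were tested against their ethanol pool, a single control whose own spread is outside the test. Aqp4 had -0.51, -0.49 and 0.29, Gfap 0.03, 0.43 and -0.05, and Slc4a4 0.56, 0.22 and 0.10. S100b had 0.63, 0.97 and 0.40 on probe 35H08 and 0.58, 0.41 and -0.22 on probe 52D05. Only Slc4a4, S100b 35H08 and Bcan 24E09 had centred ratios above 0 on all 3 arrays. None of 8 probes passed by limma, against 13.1% of all probes, and 0 had an unadjusted p under 0.05. The member means ran from -0.59 (Bcan 52F04, 2 arrays) to 0.67 (S100b 35H08). In corrected ratios they ran from -0.50 (Aqp4) to 0.32 (Slc4a4), with S100b at 0.11 and 0.15 and Gfap at -0.34, and 0 of 8 passed.

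NS398 cultures were tested against their DMSO pool in the same way. S100b had 0.32, 1.48 and 1.87 on probe 35H08 and 0.28, 1.13 and 1.86 on probe 52D05. All 6 values were above 0, and the sparse array, replicate 1, was the lowest on both probes. Gapdh had 0.42, 1.35 and 2.28 on the same arrays, in the same order. Whether S100b differed apart from what Gapdh shares was not tested. The means were 1.22 ± 0.38 and 1.09 ± 0.39 (SE; limma adjusted p = 0.025 and 0.0502), so that 1 of 8 probes passed, against 21.9% of all probes and 10.6% called higher. The call for 35H08 ended without NS398 replicate 2 (1.09) or 3 (0.90), while 52D05 passed without replicate 1 (adjusted p = 0.023). The same probes stood at 1.93 and 2.15 in Injured 4 hr against its own pool.

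In corrected ratios S100b was 0.09 and 0.06 in NS398 and did not pass. Gfap, at -0.21, -0.23 and 0.93 in centred ratios, was -0.44, -1.26 and -0.84 in corrected ratios. All 3 corrected values were negative. Their mean of -0.85 (limma adjusted p = 0.010) passed, against 12.8% of all probes and 7.95% called lower. A negative corrected value lies below the smooth curve and plate median that were subtracted, and not necessarily below the DMSO pool. The test that passed is thus not a plain test of Gfap against that pool. In centred ratios the Gfap mean was 0.17 (adjusted p = 0.80). Aqp4 had -3.14 and 1.80 on replicates 2 and 3 and was missing on replicate 1, so its mean of -0.67 describes neither array.

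The order across the 7 groups sets side by side ratios to 3 different pools (PBS, ethanol and DMSO). In centred ratios every member probe was highest in Uninjured, without overlap with the next group. In corrected ratios this held for all but S100b. There S100b 35H08 was highest in Uninjured but overlapped the next group, and S100b 52D05 was 0.04 in Uninjured, below CKIN (0.18), Indo (0.15), Acet (0.14) and NS398 (0.06). The orders that follow are those of centred ratios. For Aqp4 the order then ran Acet, Injured 4 hr, CKIN, Indo, NS398 and MP, and the groups after CKIN were not apart from their neighbours. For Gfap and S100b the Injured 4 hr group came next. For Slc4a4 and Bcan 24E09 CKIN came next, for Fgfr3 Acet and for Bcan 52F04 MP. Below Uninjured, neighbours in these orders overlapped for all probes, except for Aqp4 among Acet, Injured 4 hr and CKIN, and for S100b 52D05 between Injured 4 hr and Acet.

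The pairs of probes to 1 gene behaved unlike each other. Those of S100b followed each other over 20 arrays (Pearson r = 0.95), with a median difference of -0.12. Those of Bcan had r = 0.68 over 16 arrays, and 24E09 was above 52F04 on 15 of them. Between genes, r ran from 0.91 for Gfap with S100b 52D05 to 0.32 for Slc4a4 with S100b 52D05 (20 arrays each). It was 0.87 for Fgfr3 with Bcan 24E09 (21 arrays) and 0.84 for Aqp4 with Gfap (19 arrays). The points share pools, array scaling and the gap between Uninjured and the rest, so these are descriptions.

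Among 2995 named probes measured on at least 18 arrays, the ones most like each member were listed by r. For Aqp4 they were Mapre1, a microtubule end-binding protein (0.92, 17 arrays), the transcription factor Nfia (0.90) and Scrg1 (0.90, 19 arrays each). For Fgfr3 they were the protease inhibitor Serpine2 (0.89), the extracellular superoxide dismutase Sod3 (0.87) and the member Bcan 24E09 (0.87). For Slc4a4 they were Pak3, Pex2 and Tst, with r from 0.86 to 0.88, and for Bcan 24E09 Gas6, Phb2 and Arl6ip5, with r from 0.88 to 0.89. For Gfap they were the protease Klk6 (0.97), the prion protein gene Prnp (0.96) and the tubulin Tubb2b (0.96). S100b was most like B2m, Marcksl1 and Cox6c on 35H08 and Cst3, Marcksl1 and Rpl41 on 52D05, with r from 0.95 to 0.98. Bcan 52F04 was measured on 16 arrays and has no such list.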

How the data were processed

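The deposited table holds log2 ratios of sample over pool, 1 column per array, for 21 2-colour arrays (7 groups of 3, grouped per the labels). No label states the base, and 2 was taken because exact log2 values of small fractions such as whole-number ratios recur in the table. The sources used here name no dye, scanner, background correction or normalization, and array medians of the deposited log2 values ran from -4.12 to 0.70. Blank spots were left missing. Gapdh spots were averaged and other probes were kept apart.

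Each array was centred on its median. All arrays entered 1 model in limma 3.58.1 (R 4.3.3) with 1 coefficient per group. Probes with at least 2 arrays in each compared group were tested, with Benjamini-Hochberg adjustment over all of them, at a 2-sided adjusted p of 0.05. Indo and NS398 were tested against 0. Corrected ratios used loess (span 0.4) and plates of at least 20 probes. The model was also run on simulated data with independent noise for each probe and array. That noise held no effect shared by the probes of an array, so the run cannot speak to such effects here. Replicate numbers were not used to pair the samples in the main model. Of 63 same-number pairs of arrays 5 had residuals correlated above 0.1, as did 10 of 126 other pairs. The highest r was 0.45 among the former, between MP and Acet replicate 2, and 0.36 among the latter. Between MP and Acet replicate 1 it was 0.34.

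Every member probe is named, and up to 4 called probes of each list with the largest change. Likeness is Pearson r over shared arrays. Members and the 16 gene lists were chosen with earlier results of these data known. The alternatives were deposited, quantile-normalized, scale-normalized and corrected ratios, full measurement, a replicate block, only the compared groups, the PBS pool as control, 1 array left out and, added after seeing the data, the sparse arrays as a block. Promoters come from RefSeq (GRCr8) by gene identifier, with 6 of 6 genes matched.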

Additional observations from a re-analysis of the deposited data

How the results depend on the processing

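In Injured 4 hr against Uninjured the number of member probes called was 6, and it was 1 in deposited ratios, 0 after quantile normalization, 0 after scale normalization, 8 with only the compared groups and 5 to 6 with 1 array left out. Gfap turned to 0.15 under scale normalization. In CKIN the count was 3, but 0 in corrected ratios, 0 with the sparse arrays as a block, 1 against the PBS pool and 1 to 3 with 1 array left out. There Gfap turned to 0.092 in deposited ratios and 0.041 against the pool, and S100b 52D05 to 0.18 in corrected ratios and 0.17 against the pool. The MP count of 0 became 4 in deposited ratios, 3 under scale normalization and 0 to 3 with 1 array left out, and in deposited ratios Slc4a4 turned to 1.82, Bcan 24E09 to 1.81 and Fgfr3 to 1.56. The Acet count of 0 became 6 in deposited ratios, 2 under scale normalization and 4 against the PBS pool. Gfap then turned to 1.84 in deposited ratios and 1.78 against the pool, and S100b 52D05 to 1.07 and 1.29. The Indo count of 0 became 5 under quantile normalization, with Bcan 24E09 at -0.71 and Gfap at -0.89, and 2 with the sparse arrays as a block. The NS398 count of 1 became 4 in deposited ratios, 6 under quantile normalization, 2 under scale normalization, 2 with full measurement, 2 with the replicate block, 2 with the sparse arrays as a block and 0 to 2 with 1 array left out. Gfap there turned to -0.73 in deposited ratios, -0.95 under quantile normalization and -0.85 in corrected ratios, and Bcan 24E09 to -0.88 and Fgfr3 to -0.80 under quantile normalization. The CKIN against Acet count became 1 under quantile normalization, and the MP against Acet count ran from 0 to 1 with 1 array left out. The causes were not tested.

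Deposited ratios are not centred, and the median of all probes was then 1.47 in Injured 4 hr against Uninjured, 1.54 in CKIN, 1.67 in MP and 1.64 in Acet against Injured 4 hr, and -0.98 in NS398. Under quantile normalization it was -0.99 in Indo and -1.08 in NS398.

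Over all probes, calls in Injured 4 hr against Uninjured were 682 (38 higher), and 2403 (2389 higher) in deposited ratios, 20 (14 higher) under quantile normalization, 29 (26 higher) under scale normalization, 345 (120 higher) in corrected ratios and 1804 (507 higher) with only the compared groups. In CKIN they were 726 (52 higher), and 2170 in deposited ratios, all higher, 1236 under scale normalization, 28 (11 higher) in corrected ratios and 5 (1 higher) with the sparse arrays as a block. In MP they were 88 (2 higher), and 3161 in deposited ratios, all higher, 39 (8 higher) under quantile normalization, 643 (30 higher) under scale normalization, 39 (10 higher) in corrected ratios, 1373 (706 higher) against the PBS pool and 29 (8 higher) with the sparse arrays as a block. In Acet they were 58 (4 higher), and 3364 in deposited ratios, all higher, 505 under scale normalization, 35 (7 higher) in corrected ratios, 90 with the replicate block and 1439 (805 higher) against the PBS pool. In Indo they were 498 (96 higher), and 274 (19 higher) in deposited ratios, 2428 (27 higher) under quantile normalization and 934 (601 higher) with the sparse arrays as a block. In NS398 they were 982 (477 higher), and 1956 (52 higher) in deposited ratios, 3026 (57 higher) under quantile normalization and 571 (216 higher) in corrected ratios. The 3 comparisons between treatments gave 0 to 3 calls, and at most 93 under any alternative. The replicate block changed the members' count of calls only in NS398. Of member values called neither in centred ratios nor under the alternative, 10 of 56 changed sign in MP and 7 of 52 in Acet, and with 1 array left out 4 of 43 and 1 of 48. Probes then left with 1 array in a group, such as Aqp4 in NS398, were not tested.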
